A study of Mus musculus with 3 samples.

Results

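The ligase adaptors of the Asb, Klhl, Fbxo and Fbxl families were examined in normal mouse muscle. Members were the genes whose array symbol begins with one of these 4 names followed by a digit, apart from the atrophy gene Fbxo32. This gave 59 genes, read by 77 probe sets, out of 12394 genes on the array. There were 16 Asb, 16 Klhl, 21 Fbxo and 6 Fbxl genes. Another 49 coding genes of these families in the RefSeq gene table of GRCm38.p6 were not analysed here, among them Asb2, Klhl40, Klhl41 and Fbxo40.

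Expression was measured on 3 arrays, 1 for each of 3 muscle samples, which are called muscle 1, muscle 2 and muscle 3. All 3 carry the genotype label littermate control and an age of 3 to 6 weeks, and they served as the normal reference in a study of tumours from Pax7+ satellite cells. The strain, the alleles of the littermates, the muscle taken and whether these mice received 4-hydroxytamoxifen are not stated in the labels. No tumour array was analysed here, so no condition could be compared with another.

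Protein degradation by the ubiquitin system depends on ligases that bring a chosen protein to the ubiquitin-charged enzyme. In the cullin-RING ligases a cullin scaffold holds a RING protein at one end and, through a linker, an exchangeable adaptor at the other, and the adaptor picks the substrate. Asb proteins have ankyrin repeats and a SOCS box that binds the elongin linkers and Cul5, Klhl proteins bind Cul3 directly through a BTB domain and hold substrates with kelch repeats, and F-box proteins bind Cul1 through Skp1. Fbxl proteins carry leucine-rich repeats beside the F-box, while Fbxo proteins carry other domains or none that is recognised. Muscle uses such ligases to remodel the sarcomere and to tune insulin signalling, and Fbxo32 is the member best known from muscle wasting.

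Levels are log2 RMA values, on which a difference of 1 is 2-fold, and errors are the SD of the 3 muscles (n = 3). Because each probe set binds its target with its own strength, the level of one gene cannot be ranked against that of another. Each level was instead set against a background level, which comes from genes typical of other organs and was 6.14, 6.42 and 6.40 on the arrays of muscles 1, 2 and 3. A gene above this level in all 3 muscles is called detected, and a gene below it may still be expressed. All 10 measured fibre markers, Acta1, Ckm and Ttn among them, were detected, with list means from 13.13 to 13.14 over the muscles. Of other cell types, the lists for fibroblasts (5 of 5 detected), endothelium (4 of 5), macrophages (3 of 5), adipocytes (3 of 4) and Schwann cells (2 of 3) were partly or wholly detected too, and the part of these cells in any member's level was not tested. In such whole tissue, fewer cells of a type and less RNA per cell cannot be told apart.

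Of the 59 members, 34 were detected and 23 were below background in every muscle, while Klhl25 and Klhl42 were above it in some muscles. The detected share over all genes was 52.8%, and 41.7% of all genes were below background throughout, so these adaptors were detected about as often as genes in general. By family the detected genes were 10 of 16 Asb, 8 of 16 Klhl, 14 of 21 Fbxo and 2 of 6 Fbxl.

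**Figure D1:**
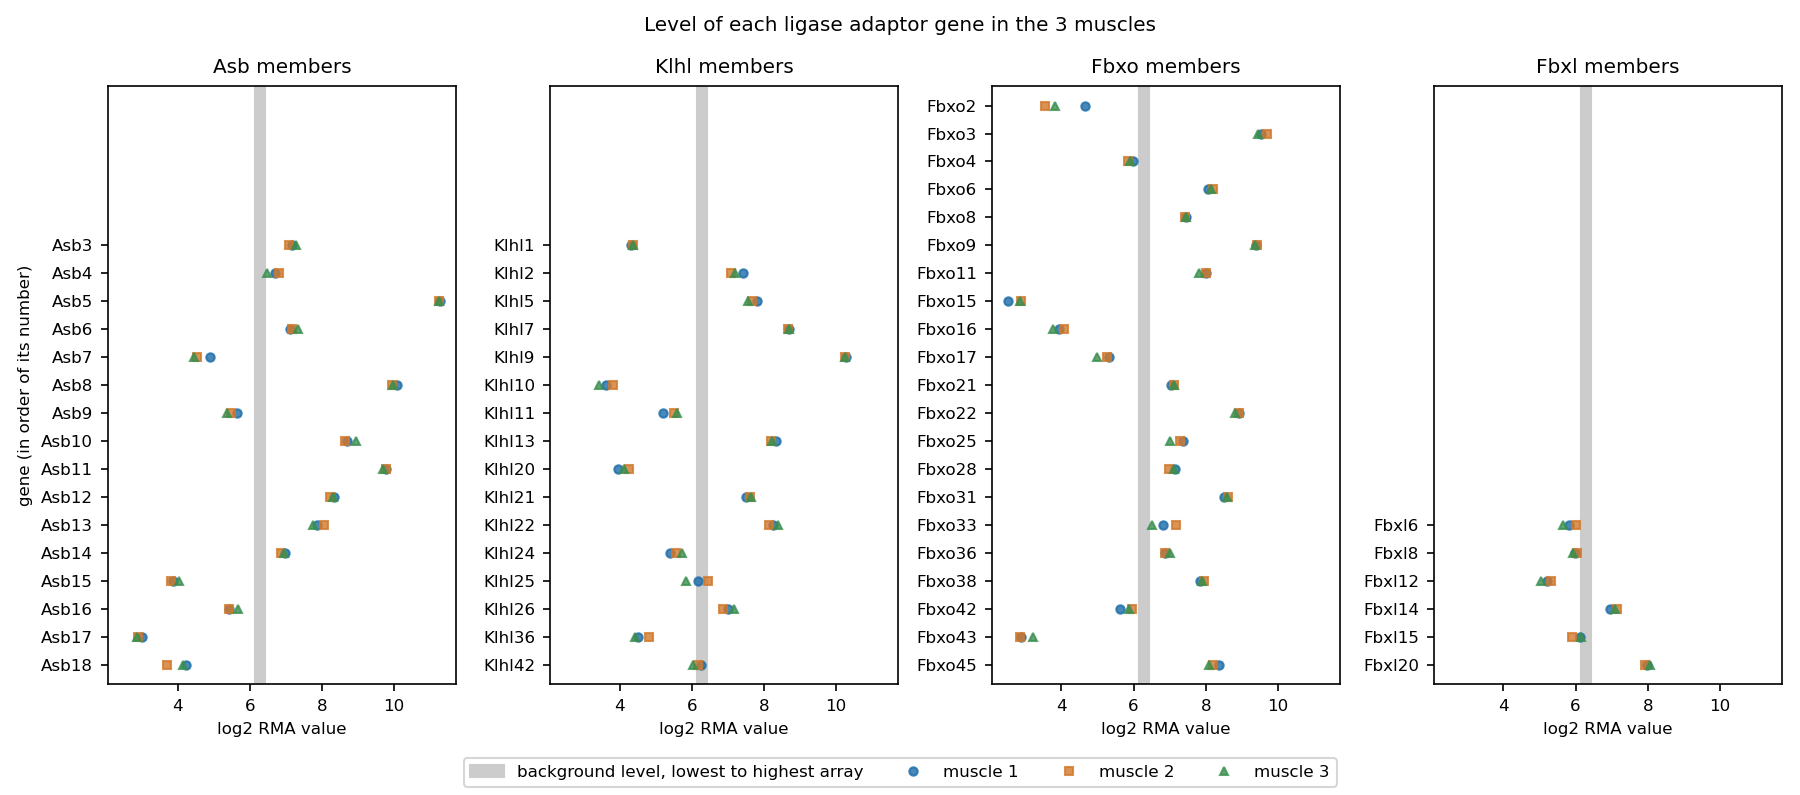
Log2 RMA value of each of the 59 members in muscle 1 (circles), muscle 2 (squares) and muscle 3 (triangles), 1 panel per family, genes in order of their number. The grey band spans the background levels of the 3 arrays, 6.14 to 6.42, and for most genes the 3 symbols lie close together.

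Promoter sequences are shown first for the Asb family, because the MEF2 consensus was found in no other family. RefSeq promoter windows of GRCm38.p6, each from 250 bases before to 50 after a start site, matched 47 of the 59 members with 65 windows. The MEF2 consensus, the 10-base site of the MEF2 factors that act in differentiated muscle, was searched on both strands. It was found in 5 windows, all of Asb genes: Asb5, Asb12, Asb14, Asb16 and Asb18. That is 26.3% of the 19 Asb windows, against 3.19% of all 32851 windows and 1.96% of the 12560 windows of genes on the array. The 46 windows of Klhl, Fbxo and Fbxl members held 0. The site is mostly A and T, and the windows differed in base content. Median GC was 50.3% over the Asb windows, 52.7% over all windows and 59.0% over windows of genes on the array. It was 60.7% over the Klhl, 60.7% over the Fbxo and 60.5% over the Fbxl windows. The part of base content in these shares was not tested. The stretches from 100 bases before to 20 after the start site are printed 5′ to 3′ on the gene's strand, with the MEF2 consensus in capitals, and those of Asb11 and Klhl9 are added as detected genes with no match.
Asb5, chr8:54571339-54571458 (+): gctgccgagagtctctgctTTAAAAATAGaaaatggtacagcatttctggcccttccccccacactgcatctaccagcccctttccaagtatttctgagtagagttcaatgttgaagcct
Asb12, chrX:95478110-95478229 (-): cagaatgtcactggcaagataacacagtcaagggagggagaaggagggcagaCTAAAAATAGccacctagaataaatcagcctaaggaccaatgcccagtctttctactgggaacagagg
Asb14, chr14:26894514-26894633 (+): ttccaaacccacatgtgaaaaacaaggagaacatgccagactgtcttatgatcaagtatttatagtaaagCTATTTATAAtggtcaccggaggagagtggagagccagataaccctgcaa
Asb16, chr11:102268651-102268770 (+): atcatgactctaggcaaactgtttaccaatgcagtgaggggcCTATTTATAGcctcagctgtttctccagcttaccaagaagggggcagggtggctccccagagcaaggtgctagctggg
Asb18, chr1:90014647-90014766 (-): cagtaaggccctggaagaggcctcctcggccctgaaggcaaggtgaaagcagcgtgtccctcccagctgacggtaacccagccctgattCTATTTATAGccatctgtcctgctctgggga
Asb11, chrX:164436894-164437013 (+): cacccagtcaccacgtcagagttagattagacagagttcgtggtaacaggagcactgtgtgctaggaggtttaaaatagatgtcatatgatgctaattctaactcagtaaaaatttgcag
Klhl9, chr4:88722489-88722608 (-): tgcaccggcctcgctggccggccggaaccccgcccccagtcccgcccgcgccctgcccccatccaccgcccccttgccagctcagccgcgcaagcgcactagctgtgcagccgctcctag

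The match began 81 bases before the start site in Asb5, 48 in Asb12, 30 in Asb14, 58 in Asb16 and 11 in Asb18. Asb5 has 3 start sites in the table and only 1 of its windows held the site. In Asb14, Asb16 and Asb18 the match overlapped TATAAA, the letters of a core promoter motif, on the strand opposite to the gene. On the printed strand these letters read TTTATA. Whether either motif is used there was not tested. Over all windows with a MEF2 consensus, 21.6% had an overlap with TATAAA on either strand. A match is a description of letters. It did not follow detection within the family, since Asb5, Asb12 and Asb14 were detected while Asb16 and Asb18 were below background in every muscle.

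Other muscle motifs, apart from 1 found in a single window, were not confined to the Asb family. The E-box CAGCTG stood in 13 of 65 member windows, against 16.3% of all windows. By family these were 5 of 19 Asb, 5 of 21 Klhl, 3 of 19 Fbxo and 0 of 6 Fbxl windows. It was in 6 of 44 windows of detected members against 7 of 20 of members below background. The MCAT motif CATTCC was in 5 member windows (7.69% against 14.7%), 1 each of Asb8, Asb10, Asb17, Fbxo4 and Klhl9. These were 3 of 44 windows of detected members and 2 of 20 of members below background. Neither motif was split by detection over all genes on the array, and some of the windows counted are overlapping windows of 1 gene. The CArG box of serum response factor was in 1, an upstream window of Asb5 (1.54% against 1.63%).

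The families also differed in CpG content, the share of CG pairs found relative to the number expected from the C and G content. Its median was 0.272 over the Asb windows, 0.613 over the Klhl, 0.748 over the Fbxo and 0.718 over the Fbxl windows, and 0.685 over windows of all genes on the array. A ratio of at least 0.6, typical of CpG islands, was reached by 5 of 19 Asb windows (26.3%) and by 14 of 19 Fbxo windows (73.7%). Detected members reached it in 26 of 44 windows (59.1%) and members below background in 7 of 20 (35.0%), against 58.5% of windows of genes on the array. That last share was not split by detection. Windows of 1 gene can overlap, so these shares are not independent observations.

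**Figure D2:**
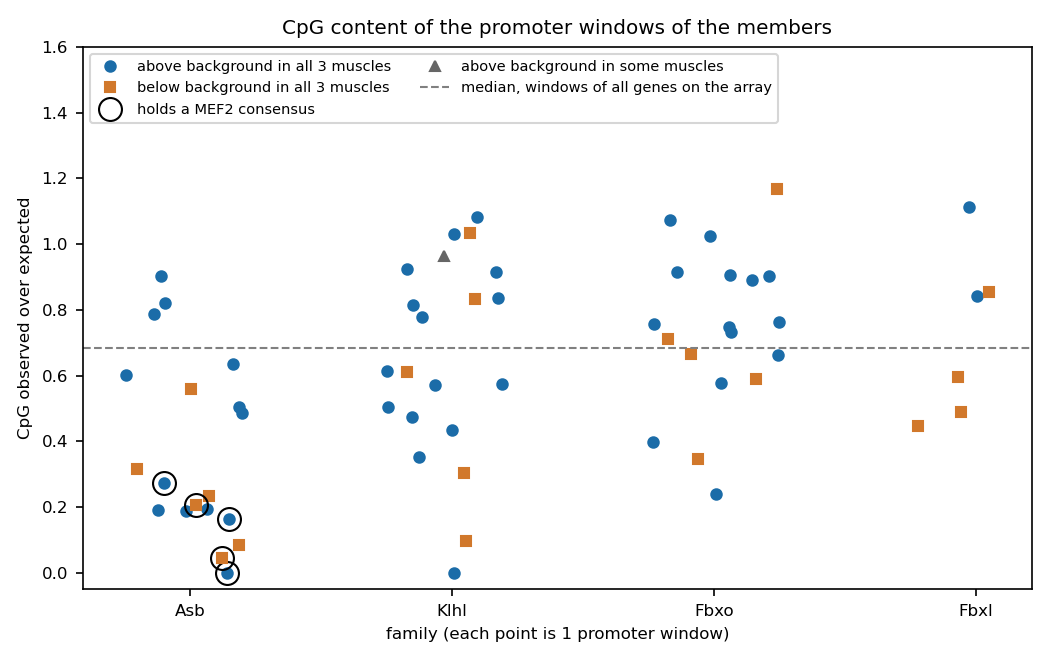
Ratio of observed to expected CpG in each of 65 promoter windows of 47 members, by family; circles are windows of detected genes, squares of genes below background, the triangle of a gene above it in some muscles, and rings mark the 5 windows with a MEF2 consensus. All ringed windows are Asb windows with a ratio of at most 0.272, below the dashed median of 0.685 for genes on the array.

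Asb genes described in muscle lay on both sides of the background level. Asb5 (probe set 1449356_at), known from muscle satellite cells and growing vessels, was at 11.28, 11.23 and 11.24 in muscles 1, 2 and 3. Asb8 (1424224_at), described in skeletal muscle, was at 10.07, 9.95 and 9.96, and its other probe set was also detected, with a mean of 8.60. Asb11 (1422153_a_at), a ligase adaptor at the endoplasmic reticulum, was at 9.77, 9.78 and 9.69. These 3 genes lay at least 3.29 above the background level in every muscle, and their muscles differed by at most 0.117.

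Asb10 (1421466_at), a gene linked to glaucoma in human families, was at 8.69, 8.63 and 8.95. Muscle 3 was the high sample, by 0.29 over the mean of the others. Asb12 (1420346_at) was at 8.33, 8.23 and 8.32 and Asb14 (1449547_at) at 6.98, 6.85 and 6.93. Both were close to even across the muscles. Asb4 (1423422_at), which is known from developing vessels and the placenta, was at 6.70, 6.82 and 6.47. In muscle 3 it lay only 0.071 above background. Its other probe set was below background throughout, at 5.99, 5.70 and 5.75 (5.81 ± 0.16), and was lowest in muscle 2. The mean of the endothelial marker list was lowest in muscle 3, at 7.18, 7.12 and 6.93. Within that list Cdh5, Kdr and Tek were lowest in muscle 3, but Pecam1 was lowest in muscle 1 and Tie1 in muscle 2. The part of endothelium in the Asb4 values was not tested.

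Other Asb genes known or proposed to act in muscle were not detected. Asb15 (1460281_at), an adaptor that affects growth of cultured muscle cells, was at 3.87, 3.82 and 4.03. Asb18 (1426116_at) was at 4.23, 3.70 and 4.14. Asb9 (1426309_at), which binds creatine kinases, was at 5.66, 5.47 and 5.36. Each of these 3 has a single probe set, so a probe that fails cannot be told apart from a low transcript. Of the creatine kinases it binds, Ckb was detected at 7.46 ± 0.04, and Ckmt1 was below background at 4.74 ± 0.14.

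The remaining Asb genes also lay on both sides of the background level. Asb3 was detected at 7.18 ± 0.11 and Asb6, which binds an insulin receptor adaptor, at 7.21 ± 0.12. Asb13 was at 7.88, 8.05 and 7.76 by its highest probe set, highest in muscle 2. Asb7 and Asb16, each with a single probe set, were below background at 4.62 ± 0.23 and 5.51 ± 0.13. There too a probe that fails cannot be told apart from a low transcript. Asb17, a testis gene, was at 2.93 ± 0.06, and the 5 testis genes used as markers were below background too.

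Among the Klhl genes, Klhl9 (1433442_at) was even across the muscles, at 10.28, 10.25 and 10.24. Klhl9 and its close copy Klhl13 act with Cul3 in cell division, and Klhl9 is mutated in a distal myopathy. Klhl13 (1448269_a_at) was at 8.34, 8.20 and 8.21, highest in muscle 1, while its other probe set stayed below background at 5.33 ± 0.20. Whether probes of one copy bind the other was not tested. Klhl21 (1428081_at), which acts at the spindle midzone, was at 7.50, 7.62 and 7.65, lowest in muscle 1.

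The other detected Klhl genes complete the family's detected part. Klhl22, an adaptor in amino acid sensing and mitosis, was at 8.25, 8.15 and 8.40, and Klhl2, an actin-binding member, was at 7.41, 7.09 and 7.21. The former was highest in muscle 3 and the latter in muscle 1. Klhl5 was at 7.80, 7.66 and 7.56 and Klhl26 at 7.003, 6.859 and 7.160, with opposite orders of muscles 1 and 3. Klhl7, mutated in a retinal dystrophy, had the smallest SD of all detected members, at 8.69 ± 0.01, and its other probe set was at 8.51 ± 0.11.

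Klhl25 (1425192_at), which targets a repressor of translation, straddled the background level at 6.16, 6.46 and 5.83. It was below the level in muscle 3 alone, and in muscles 1 and 2 it was above it by less than 0.04. Klhl42, an adaptor for katanin, was above background in muscle 1 alone, at 6.16 ± 0.12. Klhl24, whose stabilised form causes skin and heart disease, was below background at 5.56 ± 0.16, as was Klhl11 at 5.44 ± 0.21. Klhl36, Klhl20, the neuronal gene Klhl1 and the spermatid gene Klhl10 were below it as well, with means of 4.58, 4.12, 4.36 and 3.63.

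The 21 Fbxo genes were read by 32 probe sets, and those of 1 gene did not always lie on the same side of the background level. Fbxo3 (1423490_at), which promotes the loss of Fbxl2, was at 9.54, 9.68 and 9.46, a little higher in muscle 2. Another 2 of its probe sets were detected, with means of 8.44 and 7.84, while the last was at 3.35 ± 0.12. Fbxo31 (1417969_at), an adaptor for cyclin D, was at 8.51, 8.61 and 8.58 and Fbxo21 (1452828_at) at 7.03, 7.12 and 7.13. Both were slightly lower in muscle 1 than in the other muscles. A further probe set of Fbxo21 was below background, at 5.45 ± 0.28.

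Fbxo22, which binds methylated p53, was at 8.93, 8.93 and 8.81, and Fbxo45, a brain-enriched member that works without a cullin, was at 8.35, 8.21 and 8.09. Fbxo36 was at 6.88, 6.87 and 6.99. Each of these 3 also had a probe set below background in every muscle, with means of 5.68, 4.77 and 4.31. Their probe sets thus lay on different sides of the background level.

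Fbxo9, an adaptor in the control of mTOR signalling, was detected by both its probe sets, at 9.39 ± 0.03 and 6.99 ± 0.11. Fbxo11, which targets Bcl6, was at 7.94 ± 0.11 and Fbxo38, mutated in a motor neuropathy, at 7.90 ± 0.05. Fbxo8, which has a Sec7 domain, was at 7.44 ± 0.02 and Fbxo28 at 7.08 ± 0.10. Fbxo25, the close relative of Fbxo32, was at 7.36, 7.27 and 7.01, lowest in muscle 3.

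Below background were Fbxo4, an adaptor for cyclin D, at 5.91 ± 0.06, Fbxo42 at 5.81 ± 0.17 and Fbxo17 at 5.19 ± 0.18. Both probe sets of Fbxo4 were below the level. Fbxo16 was at 3.93 ± 0.15, the oocyte cell cycle inhibitor Fbxo43 at 2.98 ± 0.20 and Fbxo15, a gene of embryonic stem cells, at 2.75 ± 0.21. Fbxo2, at 4.66, 3.54 and 3.81, was the only member spanning more than 1, and no fold is given because all its values were below background.

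Of the Fbxl genes, Fbxl20, known from synapses, was detected at 7.98 ± 0.06, and Fbxl14, an adaptor for Snail factors, at 7.06 ± 0.10. Fbxl15, which targets a Smurf ligase, was at 6.06 ± 0.14, Fbxl8 at 5.99 ± 0.06, Fbxl6 at 5.83 ± 0.18 and Fbxl12 at 5.20 ± 0.14, all below background. In Fbxl15 muscle 1 came within 0.012 of the level. The family's better known muscle and clock members were not analysed here.

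Genes that neighbour each other did not always share a side of the background level. Asb11 and Asb9 are adjacent coding genes on chromosome X, and Asb11 was detected while Asb9 was not. Fbxo6 and Fbxo2 both bind N-glycans of misfolded glycoproteins and lie on chromosome 4 with Fbxo44 alone between them. Fbxo6 was detected at 8.14 ± 0.07 and Fbxo2 was below background. The adjacent genes Klhl10 and Klhl11 on chromosome 11 were both below it.

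Probe sets of 1 gene could be compared in 14 members. In 8 of these, Asb4, Asb13, Fbxo3, Fbxo21, Fbxo22, Fbxo36, Fbxo45 and Klhl13, at least 1 probe set was detected and at least 1 was below background in every muscle. The share of such genes over the whole array was not computed, so the count cannot be read as particular to these adaptors. With the probe sets of each gene averaged, Asb4, Fbxo21, Fbxo36 and Fbxo45 were no longer detected, while Asb13, Fbxo3, Fbxo22 and Klhl13 still were. Only in Asb6, Asb8, Fbxo9, Fbxo33 and Klhl7 were all probe sets detected, and in Fbxo4 none was.

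**Figure D3:**
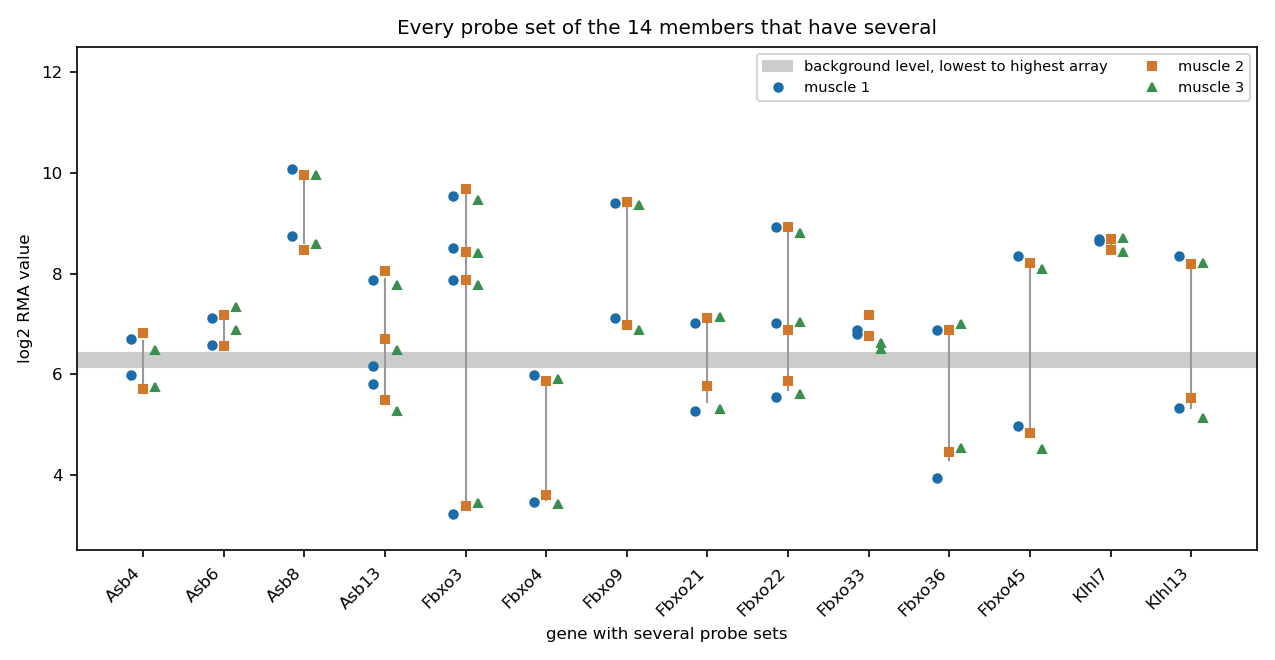
Log2 RMA values of all probe sets of the 14 members with several, in muscle 1 (circles), muscle 2 (squares) and muscle 3 (triangles); a vertical line joins the highest and lowest probe set mean of a gene and the grey band spans the background levels. In 8 genes the probe sets lie on both sides of the band; distances between probe sets carry no meaning, since each binds with its own strength.

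Of the cullin-RING ligase core, nearly all genes that were measured were detected, but not every part that these adaptors use was measured. Of 38 measured genes for cullins, RING and linker proteins, neddylation, the COP9 signalosome and ubiquitin-conjugating partners, 37 were detected, against 52.8% of all genes. The Cul3 scaffold of the Klhl genes was at 10.16 ± 0.07 and the Cul1 scaffold of the F-box genes at 8.56 ± 0.19. Their linker Skp1 was at 11.57 ± 0.05, the elongins Eloc and Elob of the Asb ligases were at 10.995 ± 0.03 and 11.28 ± 0.03, and the RING protein Rnf7 was at 10.59 ± 0.09. Among cullins not given above as scaffolds of these families, Cul2, Cul4a, Cul4b and Cul7 were detected at 9.20, 8.21, 8.08 and 7.64. Cul9 alone of the 38 was below background, at 5.75 ± 0.12. Cul5, the cullin of the Asb ligases, and Rbx1 were not analysed here.

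Relatives that carry other names were detected in 21 of 30 cases, against 52.8% of all genes. The kelch gene Keap1, a sensor of oxidative stress, was at 8.90 ± 0.07. Below background in every muscle were the cell cycle F-box genes Skp2 and Ccnf, at 4.85 and 4.59, the SOCS box genes Socs1, Socs4, Socs7 and Spsb4, at 5.74, 5.10, 5.58 and 5.39, and Vhl, at 4.54. Of 19 measured substrates or partners of the families, 15 were detected, against the same share, with filamin C (Flnc) at 10.02 ± 0.05 and the insulin receptor substrate Irs1 at 11.32 ± 0.01. Below background throughout were Wnk4, Ckmt1 and Smad3, at 4.26, 4.74 and 5.07.

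The detected members varied little between muscles. Their median SD was 0.080, a factor of 1.06, and the median over all 6544 detected genes was 0.073. The SD was under 0.2 in 33 of the 34, as in 94.2% of all detected genes, and the exception was Fbxo33, an adaptor for a Y-box protein. Its highest probe set was at 6.81, 7.17 and 6.50 in muscles 1 to 3, highest in muscle 2. Its other probe set was at 6.89, 6.77 and 6.62, again lowest in muscle 3 but highest in muscle 1, so the probe sets share only the low value of muscle 3. There the first lay 0.096 above background.

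**Figure D4:**
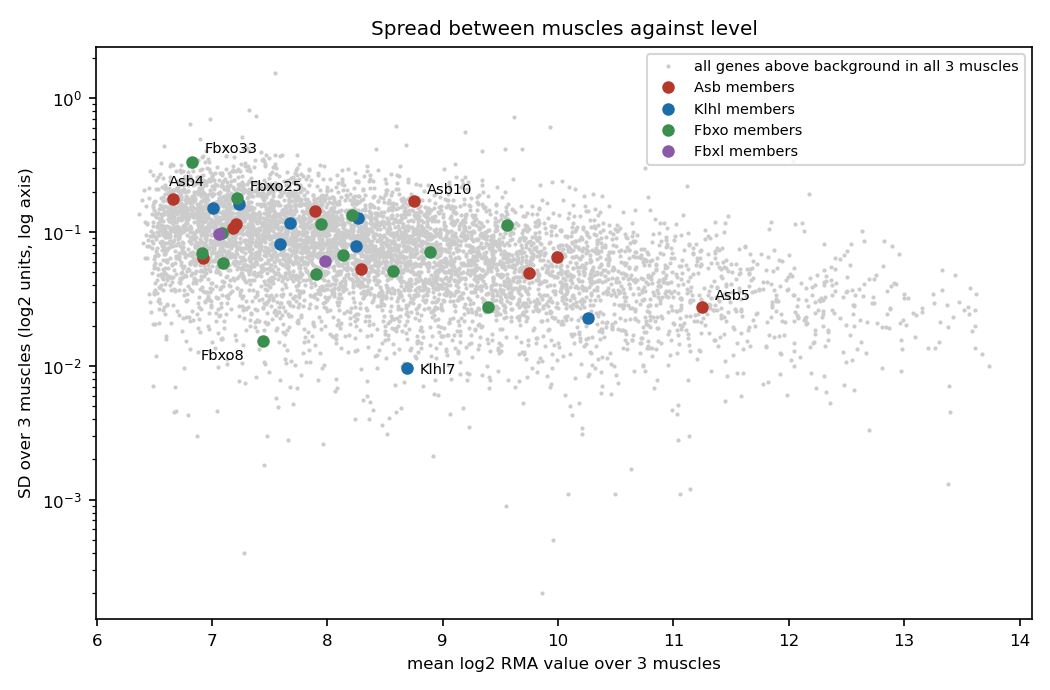
SD over the 3 muscles (log2 units, log axis) against mean log2 RMA value for the 6544 detected genes (grey) and the 34 detected members, coloured by family. Members lie within the grey cloud, Fbxo33 near its upper edge with an SD of 0.34 and Klhl7 low in it with an SD of 0.01.

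No member had a range of 2-fold between muscles among the 36 above background in at least 1, and 0.222% of all 7221 such genes did (16 genes, and 0 without muscle 3). A range of 1.5-fold was reached by 2, Fbxo33 (1.59-fold) and Klhl25 (1.55-fold), with 1.97% over all genes. In muscle 3 Klhl25 was below background and Fbxo33 only 0.096 above it, so both folds rest on a low value there. By limma's variance test, which asks whether a gene varies more than genes of like level, 0 of the 36 members were called at an adjusted p of 0.05, and 0.0554% of all genes were (4 genes, and 1 with any 1 muscle left out). At an unadjusted p under 0.05 there were 2 members, Fbxo33 (limma adjusted p = 0.97) and Asb10 (limma adjusted p = 0.98), against 4.85% of all genes. With 3 samples a miss of the threshold does not show that the muscles were alike.

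The widest ranges among detected members after Fbxo33 were those of Asb4, 0.350, Fbxo25, 0.348, Asb10, 0.323, Klhl2, 0.321, and Klhl26, 0.301. The muscle that stood apart was not the same in these genes. Asb4 and Fbxo25 were low in muscle 3, Asb10 and Klhl26 were high in it, and Klhl2 was high in muscle 1. Muscle 3 was apart in 13 of 34 detected members, higher in 7 and lower in 6. Over all detected genes it was apart in 39.4%, and it was the lowest muscle in 48.3%, against 12 of the 34 members. Muscle 2 was the lowest in 15 of the 34, against 28.7% of all detected genes. The median of muscle 3 minus the mean of the others was 0.00 over the members and -0.04 over all detected genes. Muscle 3 also had the highest 5′ signal of 18S ribosomal RNA, 11.69 against 10.96 and 11.23, and the smallest 3′ minus 5′ difference of the added dap control RNA, 3.04 against 4.13 and 3.99. The part of these in the members' values was not tested.

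**Figure D5:**
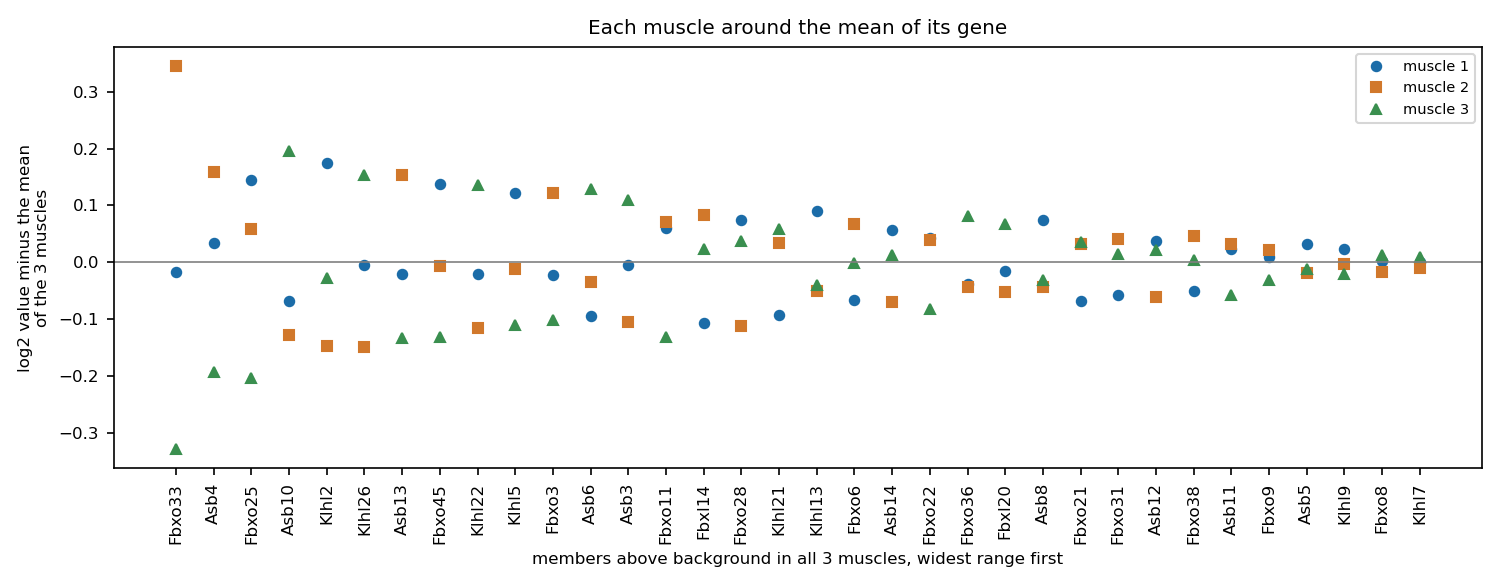
Log2 value in each muscle minus the mean of the 3 muscles, for the 34 detected members ordered from the widest range (Fbxo33, 0.672) to the narrowest (Klhl7, 0.019). No muscle is high or low throughout: muscles 1, 2 and 3 are lowest in 7, 15 and 12 genes and highest in 12, 11 and 11.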

How the data were processed

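Values are log2 signals as the authors deposited them, made with RMA per the submitters' processing notes. Neither its version nor which arrays were normalized together is stated there. Platform annotation gave 1 gene for 20393 of 22690 probe sets, and probe sets with several genes (691) or none (1606) were left out. The highest probe set by mean stood for each of 12394 genes. The background level of an array was set by 66 genes (88 probe sets), at the 95th percentile of their values; the genes are typical of retina, germ line, liver, brain, pancreas, gut, kidney, lung, breast and pituitary. Of these 66 genes, 4 were themselves above it in all 3 muscles. The members and lists were chosen with earlier results of these data known. Motifs were chosen after the levels were seen.

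Spread was tested with limma 3.58.1 in R 4.3.3: each variance (2 degrees of freedom) was set against a prior fitted robustly with a trend on level, over 7221 genes above background in at least 1 muscle, by a one-sided F test, called at a Benjamini-Hochberg adjusted p of 0.05. It was also run on simulated data drawn from the prior fitted here, which cannot show how well that prior describes these arrays. Nothing in the labels ties the muscles to separate animals, so SDs and p-values cover only how these samples differ, possibly for technical reasons. Python 3.11.15, numpy 2.4.6, pandas 2.3.3 and matplotlib 3.10.9 were used. Alternatives were other normalizations, probe set rules, background levels and priors, and leaving out each muscle. Values in each muscle are given for members known to act in striated muscle, the 10 detected members of widest range and those whose probe sets lay on both sides of background.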

Additional observations from a re-analysis of the deposited data

How the results depend on the processing

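The number of detected members, 34, ran from 30 to 35 under every alternative, including a background level at the 90th percentile, which was chosen after seeing the data. It was 30 with the probe sets of a gene averaged, which dropped Asb4, Fbxo21, Fbxo36 and Fbxo45. Without probe sets matching several transcripts Fbxo22 and Klhl13 were lost, and at the 99th percentile Asb4 and Fbxo33. Klhl42 was added at the 90th percentile and Klhl25 without muscle 3. The detected share over all genes moved too, from 52.8% to 44.25% with probe sets averaged and 49.14% without those matching several transcripts. It was 47.2% at the 99th percentile, 58.81% at the 90th and 53.9% without muscle 3. The count of members with a 2-fold range, 0, became 1 without the background filter (Fbxo2, more genes tested) and 2 at a limit of 1.5-fold. limma's variance test called 0 members under each alternative run, and over all genes from 0, with probe sets averaged or no trend, to 10 after quantile normalization; it called 1 with any 1 muscle left out or with a prior not fitted robustly, against 4. Over all genes a 2-fold range was seen in 16, in 10 with probe sets averaged, 30 at the 90th percentile, 48 without the filter and 0 without muscle 3. The median SD of 0.080 ran from 0.070 without muscle 3 to 0.116 without the filter. Averaging probe sets moved the level of 9 of the 27 members whose values are given by muscle by more than their SD. Averaging cannot move a member with a single probe set, and of those 27 with several it moved all but Fbxo33. Quantile normalization moved 0 of the 27. No paired analysis was possible because there is a single group. With 3 arrays, no detection calls and no probe-level signal, small differences and saturation could not be judged.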
